A study of Mus musculus with 16 samples.

Results

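The transcripts of 10 genes linked to heat production, not all of them in the same direction, were followed in brown adipose tissue (BAT). They are the uncoupling proteins *Ucp1*, *Ucp2* and *Ucp3*, 2 genes of the UCP1-linked programme (*Dio2* and *Kcnk3*), 4 genes of the creatine cycle (*Ckb*, *Ckmt2*, *Gatm* and *Slc6a8*), and *Gk* of the glycerol cycle. The genes were chosen by name for their known roles, with earlier results of these data known, so counts of members beside a background are descriptions. All 10, out of 51060 genes with transcripts in the files, passed the filter on low counts. RNA-seq was available for 16 mice aged 7 weeks, with 4 WT females, 4 WT males, 4 OPA1 BKO females and 4 OPA1 BKO males. All mice carried floxed *Opa1* alleles on a C57Bl/6J background and were fed chow at room temperature. OPA1 BKO mice also carried a Cre transgene driven by the *Ucp1* promoter, which deletes *Opa1* in brown adipocytes, and WT mice were floxed littermates without Cre. The transgene and the deletion therefore cannot be told apart here. The labels give no pairs, litters or batches, and p-values measure the spread between these mice.

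UCP1 is a carrier of the mitochondrial inner membrane that lets protons return without making ATP, so that the energy of the gradient is released as heat. Futile cycles release heat in another way, by spending ATP on reactions that run in opposite directions. In the creatine cycle, creatine is phosphorylated and dephosphorylated again. In the glycerol cycle, triglyceride is broken down and made again, with glycerol kinase returning the freed glycerol to the pathway.

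Relative to WT, 4 of the 10 members were higher in OPA1 BKO BAT at an adjusted p under 0.05 (edgeR's quasi-likelihood test), against a background of 20.8% of the 15632 genes tested. They were *Ucp2* and the creatine genes *Ckb*, *Slc6a8* and *Gatm*. Of the 10 members, 1 was lower, *Ucp3*, against a background of 20.2%. The other 5, *Ucp1*, *Dio2*, *Kcnk3*, *Ckmt2* and *Gk*, did not pass the test. Without the 3 mice richest in skeletal muscle transcripts, left out after seeing the data, 3 members were higher and 1 lower. In that fit 2789 of 15690 genes tested were higher and 2578 lower. The groups did not overlap for 2 members, *Ckb* and *Ucp2*, both higher in OPA1 BKO, and 5.07% of all genes tested were higher without overlap. Levels are CPM, counts scaled to library size with TMM factors, and in bulk tissue fewer cells of a type and less RNA per cell cannot be told apart.

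**Figure D1:**
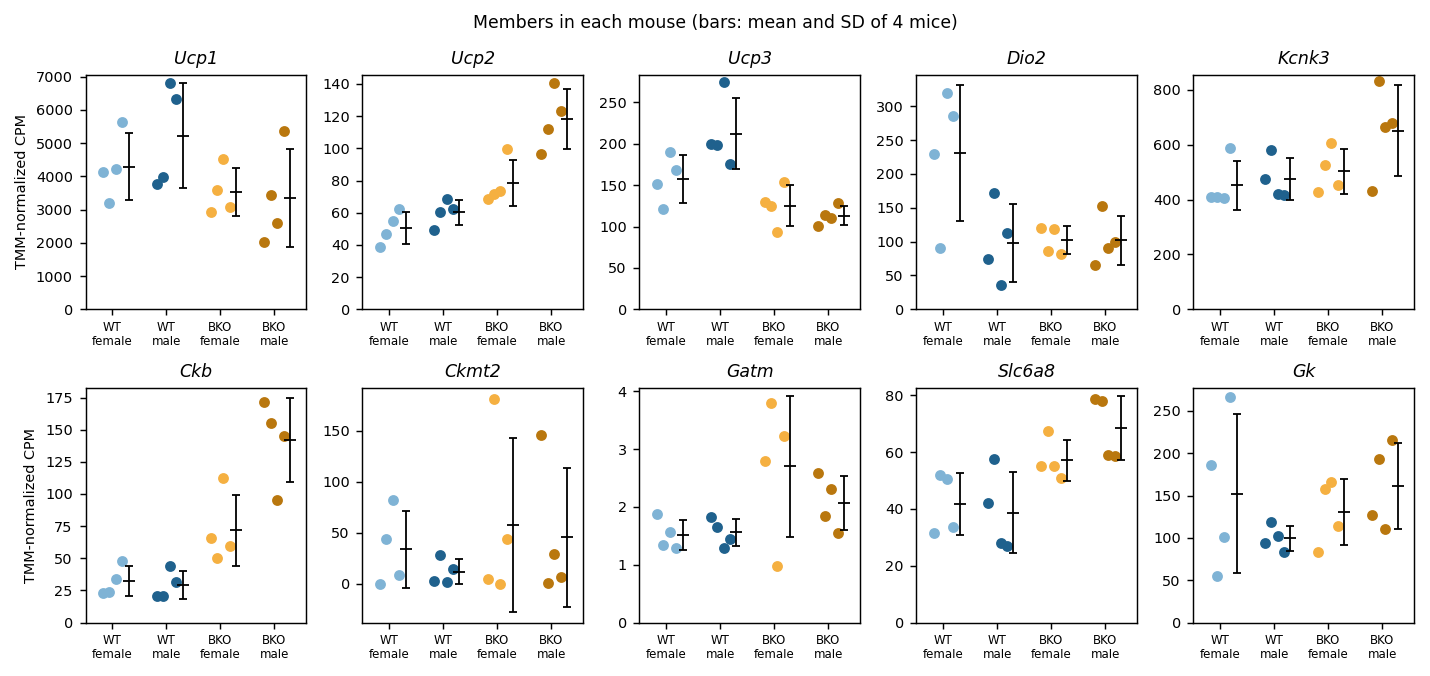
TMM-normalized CPM of the 10 members in each of the 16 mice (points; linear axes), with the mean and SD of the 4 mice of each group beside them. *Ckb* ran from 20.3 to 47.9 CPM in WT mice and, without overlap, from 49.8 to 172 CPM after the deletion, whereas *Ucp1* ran from 3187 to 6815 and from 2011 to 5373 CPM.

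The 250 bases before the transcription start are given below for the 3 *Ucp* genes, of which *Ucp2* rose and *Ucp3* fell, for *Dio2*, whose spread within groups was second to that of *Ckmt2*, and for *Ckb*, the member that rose most. They were taken from RefSeq on GRCm38.p6, where 8 of the 10 members matched. *Kcnk3* and *Slc6a8* are named only. Each runs 5′ to 3′ in the direction of the gene, and capitals mark matches on either strand to TGACGTCA (the cAMP response element), TATAAA (the TATA box), GGGCGG (the GC box) and CCAAT (the CCAAT box).
Ucp1, chr8:83290098-83290347, plus strand: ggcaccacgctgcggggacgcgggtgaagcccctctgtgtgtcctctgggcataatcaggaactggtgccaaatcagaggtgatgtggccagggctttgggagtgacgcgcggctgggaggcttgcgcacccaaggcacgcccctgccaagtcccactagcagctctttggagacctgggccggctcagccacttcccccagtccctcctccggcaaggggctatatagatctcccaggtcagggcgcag
Ucp2, chr7:100493108-100493357, plus strand: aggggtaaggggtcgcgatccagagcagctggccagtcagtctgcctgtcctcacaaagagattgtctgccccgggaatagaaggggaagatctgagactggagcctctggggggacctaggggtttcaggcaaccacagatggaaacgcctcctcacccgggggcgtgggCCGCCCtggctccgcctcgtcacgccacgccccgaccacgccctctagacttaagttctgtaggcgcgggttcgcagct
Ucp3, chr7:100472741-100472990, plus strand: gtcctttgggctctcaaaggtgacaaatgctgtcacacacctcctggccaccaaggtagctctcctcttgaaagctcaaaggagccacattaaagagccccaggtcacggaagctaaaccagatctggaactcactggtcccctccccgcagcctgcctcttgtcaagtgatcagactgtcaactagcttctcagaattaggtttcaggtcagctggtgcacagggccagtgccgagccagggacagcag
Dio2, chr12:90739039-90739288, minus strand: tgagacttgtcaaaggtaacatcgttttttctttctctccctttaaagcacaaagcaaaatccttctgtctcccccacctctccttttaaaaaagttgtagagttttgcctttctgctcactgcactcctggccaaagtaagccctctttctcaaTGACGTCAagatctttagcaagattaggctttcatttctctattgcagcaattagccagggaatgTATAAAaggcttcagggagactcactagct
Ckb, chr12:111672339-111672588, minus strand: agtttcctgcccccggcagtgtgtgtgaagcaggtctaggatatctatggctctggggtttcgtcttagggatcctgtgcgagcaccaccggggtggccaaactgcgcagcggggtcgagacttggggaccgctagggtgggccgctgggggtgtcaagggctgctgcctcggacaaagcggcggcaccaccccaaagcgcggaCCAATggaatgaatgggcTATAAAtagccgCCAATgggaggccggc

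The cAMP response element was present in the *Dio2* window alone among the 8 members, and 1.55% of 32851 promoters held it. TATAAA was found in the *Dio2* and *Ckb* windows and in 12.4% of all promoters. CCAAT, which occurred at 2 places in the *Ckb* window, was also in those of *Ckmt2* and *Gatm* and in 33.8% of all. GGGCGG was in the windows of *Ucp2*, *Ckmt2* and *Gk* and in 32.7% of all. TGATGNAA, the core of a composite element known to bind ATF4, was in the windows of 0 of the 8 members and in 3.45% of all. In GC content the windows ranged from 41.6% in *Dio2* to 67.2% in *Gk*, with a median of 52.4% over all promoters. A match of letters is a description and not a binding site.

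The targeted gene was checked first. *Opa1* ranged from 152 to 210 CPM, with a median of 180, in WT and from 17.9 to 36.9 CPM, with a median of 24.6, in OPA1 BKO mice. Every OPA1 BKO mouse lay below every WT mouse (log2 fold change -2.82, SE 0.15, adjusted p = 7.4e-10 by edgeR, n = 8 per genotype). Total estimated counts ranged from 13607283 to 23114534 per mouse. Transcripts of the mitochondrial genome took 23.1% to 30.4% of the counts in WT mice, against 4.41% to 8.96% after the deletion. The choice of scaling moved the other genes. Over all genes tested, the median log2 fold change was 0.01 with TMM and 0.57 with library size alone. With library size without mitochondrial transcripts it was 0.22. Adipocyte content was followed by 11 adipocyte markers, which were not chosen to tell brown from other adipocytes. *Ucp1*, a marker of brown adipocytes, is itself a member and is described below. The summed markers ranged from 13306 to 18646 CPM in WT and from 7940 to 11913 CPM in OPA1 BKO mice, without overlap. Of the 11 markers, 4 were lower and 1 higher (background 20.2% and 20.8%). Their part in the results for the members was not tested.

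Among the uncoupling proteins, *Ucp1* (chr8:83290352-83298452, plus strand, GRCm38) was by far the most abundant. In WT its level per length was 2706 ± 717 TPM (counts scaled by transcript length and by the total of the mouse; SD, n = 8), rank 30 of all genes, while *Ucp3* stood at 68.8 ± 14.4 TPM and *Ucp2* at 33.3 ± 6.44 TPM. In OPA1 BKO mice *Ucp1* held rank 24. There *Ucp2* stood at 113 ± 28.5 TPM and *Ucp3* at 86.8 ± 13.3 TPM (SD, n = 8). Which of them was higher depended on the unit, since per kilobase of the longest transcript the ratio of *Ucp2* to *Ucp3* was 0.326 to 0.788 in OPA1 BKO mice.

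*Ucp1* ranged from 3187 to 6815 CPM (median 4171) in WT and from 2011 to 5373 CPM (median 3248) in OPA1 BKO mice. The lowest 4 mice were all OPA1 BKO, but the groups overlapped widely, and OPA1 BKO male 4 lay above 5 WT mice. The log2 fold change of -0.46 (SE 0.20, 1.38-fold lower) did not pass the test (adjusted p = 0.0738, edgeR). Its approximate 95% interval (2 SE on either side) ran from -0.86 to -0.06 without adjustment for the number of genes. DESeq2 gave the same size with an adjusted p of 0.0376. Leaving out WT female 2, OPA1 BKO female 3 or OPA1 BKO male 4 also brought the call past the threshold in edgeR, with adjusted p between 0.0241 and 0.0449. The spread of *Ucp1* within groups, a log2 SD of 0.44, was larger than that of 78.3% of genes.

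*Ucp2* (chr7:100493337-100502020, plus strand), a related carrier that is known from many tissues and from macrophages, ranged from 38.6 to 68.3 CPM (median 57.6) in WT. In OPA1 BKO mice it ranged from 68.6 to 141 CPM (median 98.1). All OPA1 BKO mice were above all WT mice, although the lowest OPA1 BKO and the highest WT mouse were nearly equal. *Ucp2* rose by 0.80 on the log2 scale (SE 0.12, 1.75-fold, adjusted p = 6.8e-05, edgeR). Macrophage markers rose beside it, with 14 of 16 higher and 0 lower (background 20.8% and 20.2%). Their sum ranged from 138 to 191 CPM in WT and from 195 to 972 CPM in OPA1 BKO mice. OPA1 BKO female 3 had the lowest of these sums among OPA1 BKO mice, 195 CPM, with 73.3 CPM of *Ucp2*. Both values were above every WT mouse. The highest sum, 972 CPM, was in OPA1 BKO male 3, which also had the highest *Ucp2*, 141 CPM. With the marker sum as a term, chosen after seeing the data, *Ucp2* was at 0.40 (adjusted p = 0.169, edgeR). The sum itself did not overlap between genotypes, so this term and the genotype can hardly be told apart.

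*Ucp3* (chr7:100472990-100486432, plus strand), a carrier best known from muscle and BAT, ended 6904 bases before the start of *Ucp2* on the same strand and moved the opposite way. It ranged from 121 to 275 CPM (median 183) in WT and from 93.4 to 154 CPM (median 120) in OPA1 BKO mice. The groups overlapped in females and were apart in males. *Ucp3* fell by 0.62 on the log2 scale (SE 0.14, 1.54-fold lower, adjusted p = 0.00184, edgeR). Within each mouse, the ratio of *Ucp2* to *Ucp3* in TPM was 0.499 ± 0.122 in WT and 1.33 ± 0.379 in OPA1 BKO mice (SD, n = 8). The highest WT ratio was 0.657 and the lowest OPA1 BKO ratio 0.887. In counts per kilobase of the longest transcript, the ratio was lower, 0.188 ± 0.0347 and 0.516 ± 0.156, and again without overlap. A ratio within a mouse does not depend on the scaling between mice. The ratio of *Ucp1* to *Ucp3* overlapped, at 39.8 ± 9.31 in WT and 44.6 ± 15.9 in OPA1 BKO mice (SD, n = 8). Of the 3 related carriers outside the members, *Slc25a14* rose (log2 fold change 0.36, SE 0.11, adjusted p = 0.0178, edgeR), whereas *Slc25a27* and *Slc25a30* did not pass the test.

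*Dio2* (chr12:90724552-90738438, minus strand) encodes the deiodinase that makes active thyroid hormone inside the cell. In WT females it was measured at 229, 90.3, 320 and 285 CPM, and in WT males at 74.1, 171, 35.7 and 112 CPM. In OPA1 BKO mice it ranged from 66.0 to 152 CPM, with a median of 95.1. The 3 highest mice were WT females and the lowest was a WT male, so that OPA1 BKO mice lay inside the WT range. *Dio2* had a log2 fold change of -0.56 (SE 0.33, adjusted p = 0.187, edgeR). Without WT male 3, the lowest, it was -0.75 (adjusted p = 0.0449).

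*Kcnk3* (chr5:30588170-30625271, plus strand), a two-pore potassium channel of brown adipocytes, ranged from 404 to 587 CPM (median 418) in WT and from 426 to 832 CPM (median 567) in OPA1 BKO mice. The groups overlapped, and the 4 highest mice were OPA1 BKO. Its log2 fold change was 0.31 (SE 0.14, adjusted p = 0.0811, edgeR). Leaving out WT female 4 or OPA1 BKO male 1 brought it past the threshold (adjusted p = 0.0239 and 0.0301). The gene shared 5.97% of its 31-base words with other genes, mostly with *Gm9899*, which overlaps it on the opposite strand and held a mean of 1529 counts, and whether the quantification used strand is not given in the sources used here.

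Of 34 tested genes of the UCP1-linked programme, 8 were higher and 11 lower (background 20.8% and 20.2% of all genes tested). The median of their log2 fold changes was -0.10 against 0.01 over all genes. *Elovl3*, a fatty acid elongase, rose from 13.03 ± 6.13 to 119 ± 83.1 CPM (SD, n = 8 per genotype), by 2.99 on the log2 scale (adjusted p = 3.7e-05, edgeR). *Esrrb* (1.76), a nuclear receptor, and *Lhx8* (1.24), a transcription factor that marks brown adipocytes, also rose. *Irf4* (-1.98), a transcription factor of the fasting response, *Ffar4* (-1.81), a fatty acid receptor, and *Clstn3* (-1.34) fell most. *Cidea*, a lipid droplet protein of brown adipocytes, fell by 0.43 (adjusted p = 0.00313, edgeR). The regulators *Ppargc1a* (0.60, adjusted p = 0.184) and *Prdm16* (-0.45, adjusted p = 0.0565) did not pass the test by edgeR.

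The signal that drives *Ucp1* and *Dio2* begins with noradrenaline at beta-adrenergic receptors. Of 22 tested genes of this input, 1 was higher and 6 lower (background 20.8% and 20.2%), with a median of -0.18. The beta3 receptor *Adrb3* fell from 285 ± 33.0 to 142 ± 36.1 CPM (SD, n = 8 per genotype; log2 fold change -1.01, adjusted p = 3.0e-05, edgeR). *Gnas*, the stimulatory G protein, fell by 0.96 and *Adcy6*, an adenylyl cyclase, fell by 0.77, while *Prkar2a*, a regulatory subunit of protein kinase A, rose by 0.63. Of 11 tested thyroid hormone genes, 3 were higher and 3 lower (background 20.8% and 20.2%). *Thrsp*, a gene induced by thyroid hormone, fell by 0.87, whereas *Hr* of the same list rose by 0.63 (adjusted p = 0.00827, edgeR). The coactivator *Ncoa1* rose by 0.73.

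**Figure D2:**
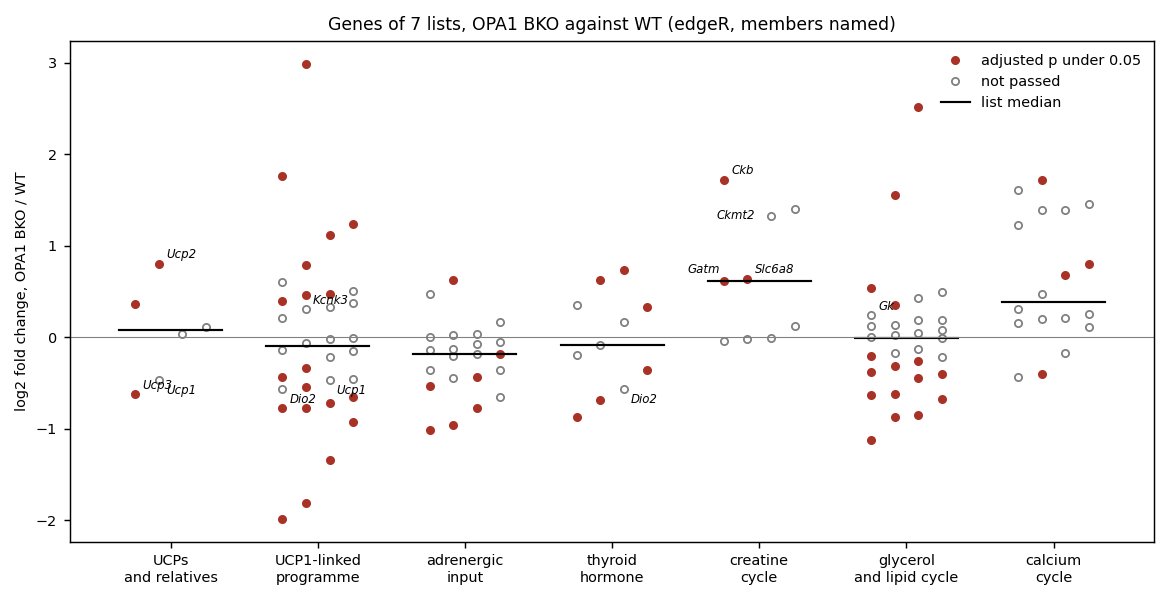
Log2 fold change of OPA1 BKO over WT (edgeR) for the genes of 7 lists; filled points passed an adjusted p under 0.05, lines are list medians and members are named. The creatine list had a median of 0.62 (0.12 without *Ckm* and *Ckmt2*) with 3 of 9 genes higher, whereas the glycerol and lipid list had a median of -0.01 with 4 of 31 higher and 12 lower. Over all genes tested, 20.8% were higher and 20.2% lower.

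Among the creatine cycle genes, *Ckb* (chr12:111669361-111672338, minus strand), the cytosolic brain-type creatine kinase, changed most. In WT females it was at 22.9, 24.1, 34.2 and 47.9 CPM, and in WT males at 20.3, 20.9, 43.6 and 31.2 CPM. In OPA1 BKO females it was at 65.4, 49.8, 112 and 59.8 CPM, and in OPA1 BKO males at 172, 155, 95.6 and 145 CPM. All 8 OPA1 BKO mice were above all 8 WT mice, and OPA1 BKO female 2 was the closest to WT. *Ckb* rose by 1.72 on the log2 scale (SE 0.26, 3.30-fold, adjusted p = 8.7e-05, edgeR), which exceeded the change of 98.3% of genes. It passed in each of the 16 fits that left out 1 mouse, at 1.60 to 1.87. Per length, it rose from rank 3368 of all genes (19.4 ± 7.51 TPM) in WT to rank 991 (133 ± 62.1 TPM) in OPA1 BKO mice. As a share of *Ucp1* in the same mouse, *Ckb* was 0.711% ± 0.162 in WT and 3.81% ± 2.53 in OPA1 BKO mice (SD, n = 8), at most 0.953% and at least 1.56%. In counts per kilobase of the longest transcript the shares were lower, 0.372% ± 0.0813 and 1.98% ± 1.32. The gene shared 16.6% of its 31-base words with *Gm12892*, whose own counts were 0 to 6.80 per mouse.

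*Slc6a8* (chrX:73673150-73682502, plus strand), the creatine transporter of the plasma membrane, ranged from 27.0 to 57.5 CPM (median 37.8) in WT and from 50.8 to 78.8 CPM (median 58.8) in OPA1 BKO mice. The groups overlapped through WT male 2 and WT female 2. *Slc6a8* rose by 0.64 on the log2 scale (SE 0.16, 1.56-fold, adjusted p = 0.00511, edgeR). Its transcripts were a mixture, with 48.3% of its TPM in coding transcripts in WT (25.1% to 68.5%) and 53.2% in OPA1 BKO mice (40.4% to 66.0%).

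*Gatm* (chr2:122594467-122611303, minus strand), the enzyme of the first step of creatine synthesis, was scarce, with 17 to 77 counts per mouse. It ranged from 1.29 to 1.87 CPM (median 1.51) in WT and from 0.986 to 3.80 CPM (median 2.45) in OPA1 BKO mice. Of the 8 OPA1 BKO mice, 5 were above the WT range, but the lowest of all 16 mice was OPA1 BKO female 3. *Gatm* rose by 0.62 on the log2 scale (SE 0.23, adjusted p = 0.0368, edgeR). The call did not hold in 10 of the 16 fits without 1 mouse (adjusted p up to 0.0826). It was also lost without the 3 mice richest in muscle transcripts (0.45, adjusted p = 0.187). *Gamt*, the enzyme of the next step, had a mean of 3.83 ± 1.51 CPM in WT mice, against 3.61 ± 1.05 CPM with the deletion (SD, n = 8 per genotype).

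*Ckmt2* (chr13:91853387-91876885, minus strand), the sarcomeric mitochondrial creatine kinase, differed between single mice far more than between genotypes. In WT females it was at 0.114, 44.4, 82.5 and 8.51 CPM and in WT males at 2.75, 28.0, 2.21 and 15.01 CPM. In OPA1 BKO females it was at 5.21, 182, 0 and 43.6 CPM and in OPA1 BKO males at 145, 0.587, 29.8 and 6.65 CPM. The groups overlapped over nearly their whole range (log2 fold change 1.33, SE 1.11, adjusted p = 0.359, edgeR). No count was found in OPA1 BKO female 3, which allows up to 3 counts and covers counting error only. The spread within groups was larger than that of 99.9% of genes.

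The 16 skeletal muscle markers varied in the same way. Their sum ranged from 83.1 to 10340 CPM in WT and from 50.9 to 23990 CPM in OPA1 BKO mice, and 0 of 16 passed the test by edgeR or DESeq2 (0 at an unadjusted p under 0.05 by edgeR, 1 by DESeq2), while their log2 fold changes had a median of 1.44. Ranked by this sum and by *Ckmt2*, 9 of the 16 mice had the same rank, and the largest gap was 2 ranks. The mouse without a *Ckmt2* count was also the lowest in muscle markers. With the marker level as a term, chosen after seeing the data, *Ckmt2* was at -0.34 (adjusted p = 0.158, edgeR), and without the 3 mice above 10000 CPM of markers it was at -0.046 (adjusted p = 0.979). *Ckb* was at 1.72 and 1.79 in the same 2 fits (adjusted p = 6.3e-05 and 0.000214, edgeR). The part of muscle tissue in these values was not tested.

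**Figure D3:**
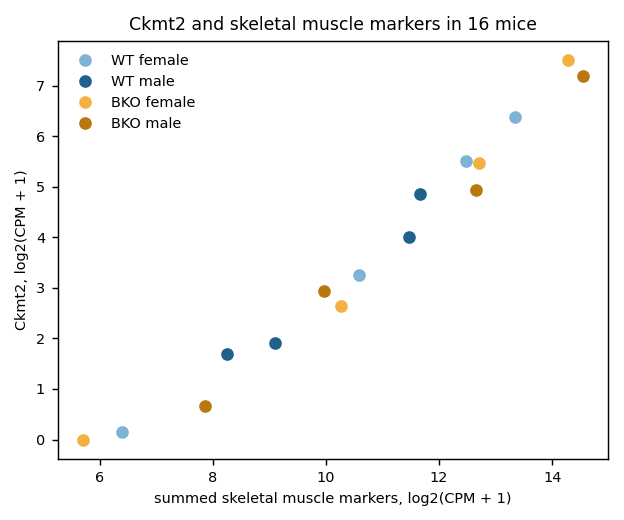
*Ckmt2* against the summed skeletal muscle markers in each of 16 mice, both as log2(CPM + 1), colored by group. Mice of all 4 groups lie along the same band, from OPA1 BKO female 3 (0 and 50.9 CPM) to OPA1 BKO male 1 (145 and 23990 CPM).

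Of 9 tested genes of the creatine list, 3 were higher, all of them members, and 0 were lower in edgeR and in DESeq2, also at an unadjusted p under 0.05. In edgeR the background at the adjusted threshold was 20.8% higher and 20.2% lower. The median log2 fold change was 0.62. *Ckm*, the muscle creatine kinase and one of the muscle markers, had a log2 fold change of 1.40 (adjusted p = 0.361). Without *Ckm* and *Ckmt2*, left out after seeing the data, the median was 0.12 over the other 7 genes. *Alpl*, a phosphatase that can act on phosphocreatine, stood at 0.12 and the ADP/ATP carriers *Slc25a4* and *Slc25a5* at -0.01 and -0.04.

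*Gk* (chrX:85701937-85776819, minus strand) encodes glycerol kinase. In WT females it was at 186, 54.5, 101 and 267 CPM and in WT males at 93.5, 119, 102 and 83.4 CPM. In OPA1 BKO mice it ranged from 83.0 to 216 CPM, with a median of 142. The highest and the lowest of the 16 mice were both WT females. The log2 fold change was 0.24 (SE 0.28, adjusted p = 0.529, edgeR). Its approximate 95% interval ran from -0.33 to 0.80, so that a change of this size was not detectable with this spread.

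The coding transcripts of *Gk* were split differently between the genotypes. Transcript Gk-206 contains an exon of 84 bases at chrX:85749612-85749695 (GRCm38, minus strand; exon 5 of 20, coding) that Gk-201 and Gk-202 do not have. It is shown because it is the only exon that sets this transcript apart without overlap.
Gk-206 exon 5, chrX:85749612-85749695, minus strand: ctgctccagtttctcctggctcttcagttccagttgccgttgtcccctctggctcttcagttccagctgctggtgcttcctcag

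Of the TPM of these 3 coding transcripts, Gk-206 held between 31.4% and 56.2% in WT (mean 45.0% ± 8.52, SD, n = 8). In OPA1 BKO mice it held 20.7% to 33.0% (mean 26.3% ± 4.14, SD, n = 8). WT female 3, at 31.4%, was the WT mouse that fell inside the OPA1 BKO range. Gk-201 held 34.3% ± 8.85 in WT and 52.1% ± 5.10 in OPA1 BKO mice. The first exon also differed, with 394 bases in Gk-201 and 199 in Gk-206, and the shares are Kallisto's estimates without a test. Coding transcripts made up 51.5% of the TPM of *Gk* in WT and 56.2% in OPA1 BKO mice.

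Of 31 tested genes of the glycerol and lipid cycle, 4 were higher and 12 lower (background 20.8% and 20.2%). *Gpat3*, a glycerol-3-phosphate acyltransferase, rose from 14.7 ± 6.19 to 84.5 ± 23.1 CPM (SD, n = 8 per genotype; log2 fold change 2.52, adjusted p = 1.4e-06, edgeR). *Gpat4*, of the same enzyme activity, fell from 539 ± 120 to 251 ± 67.1 CPM (-1.12, adjusted p = 4.8e-05). The glycerol channel *Aqp9* (1.55), which was below 1 CPM on average in both genotypes, and the lipin *Lpin1* (0.54) rose. *Dgat2*, which completes triglyceride synthesis, fell by 0.88 and *G0s2*, an inhibitor of lipolysis, fell by 0.84. *Pnpla2*, the first lipase of triglyceride breakdown, fell by 0.68 (adjusted p = 1.1e-05, edgeR), and *Gpd1*, which links glycolysis to glycerol-3-phosphate, fell by 0.63 (adjusted p = 0.00205, edgeR). The glycerol channel *Aqp7* was at -0.13 (adjusted p = 0.264).

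The calcium cycle, in which calcium is pumped into the endoplasmic reticulum and leaks back, had 3 of 18 tested genes higher and 1 lower. Over all genes tested, 20.8% were higher and 20.2% lower. The pumps *Atp2a3* and *Atp2a2* rose by 1.72 and 0.80 (adjusted p = 1.7e-07 and 0.00651, edgeR), and *Mcu*, the pore of the mitochondrial calcium uniporter, rose by 0.68. The muscle pump *Atp2a1* (1.39) and its regulator *Sln* (1.61) did not pass the test, and *Atp2a1* is among the muscle markers. *Itpr3*, a calcium release channel, fell by 0.40.

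Within each sex, 2 of 10 members were higher in females (background 8.96%) and 3 in males (background 17.9%), while 0 were lower in females (background 9.03%) and 1 in males (background 16.9%). At an unadjusted p under 0.05 in edgeR, 3 members were higher and 1, *Dio2*, was lower in females. Of all 15632 genes, 4989 passed at that threshold in either direction. *Ckb* rose in both sexes, by 1.15 in females (SE 0.31, adjusted p = 0.0177) and by 2.29 in males (SE 0.32, adjusted p = 7.2e-05), in edgeR. The call in females was lost without WT female 1, WT female 2 or OPA1 BKO female 3, with log2 fold changes of 1.02, 1.03 and 0.85 (adjusted p = 0.0562, 0.0558 and 0.0670). *Ucp2* also rose in both, by 0.63 (adjusted p = 0.0136) and 0.97 (adjusted p = 0.00032). *Ucp3* was at 151, 121, 190 and 169 CPM in WT females and at 129, 125, 93.4 and 154 CPM in OPA1 BKO females (log2 fold change -0.33, adjusted p = 0.190, edgeR). In males it was at 200, 199, 275 and 176 CPM in WT and at 100, 114, 110 and 128 CPM in OPA1 BKO mice, without overlap (-0.91, adjusted p = 0.00079). *Slc6a8* was at 0.45 in females (adjusted p = 0.187) and rose by 0.83 in males (adjusted p = 0.0110).

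The difference between the sexes in the effect of genotype was tested as an interaction. It passed for 0 of 10 members in edgeR, against a background of 0.115% of genes. It also passed for 0 of 10 in DESeq2, where 227 genes had a higher and 122 a lower effect in males. At an unadjusted p under 0.05, 2 members passed in either tool, beside 2051 of 15632 genes in edgeR and 2064 in DESeq2. For *Ckb* the effect was larger in males by 1.14 (SE 0.43, adjusted p = 0.281, edgeR), and for *Ucp3* it was lower by 0.57 (SE 0.24, adjusted p = 0.318). For *Dio2* the log2 fold change was -1.18 in females (adjusted p = 0.0642) and 0.053 in males, a difference of 1.23 (SE 0.59, adjusted p = 0.392, edgeR). Leaving out WT female 2 brought the value of *Dio2* in females past the threshold, at -1.44 (adjusted p = 0.0242), as did leaving out WT male 2 or WT male 3 (adjusted p = 0.0444 and 0.0325). Between WT males and WT females, 0 of 10 members passed in edgeR against a background of 0.230%. At an unadjusted p under 0.05, 2 did so, *Ucp3* (0.43) and *Dio2* (-1.23, adjusted p = 0.174), beside 2587 of 15632 genes.

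**Figure D4:**
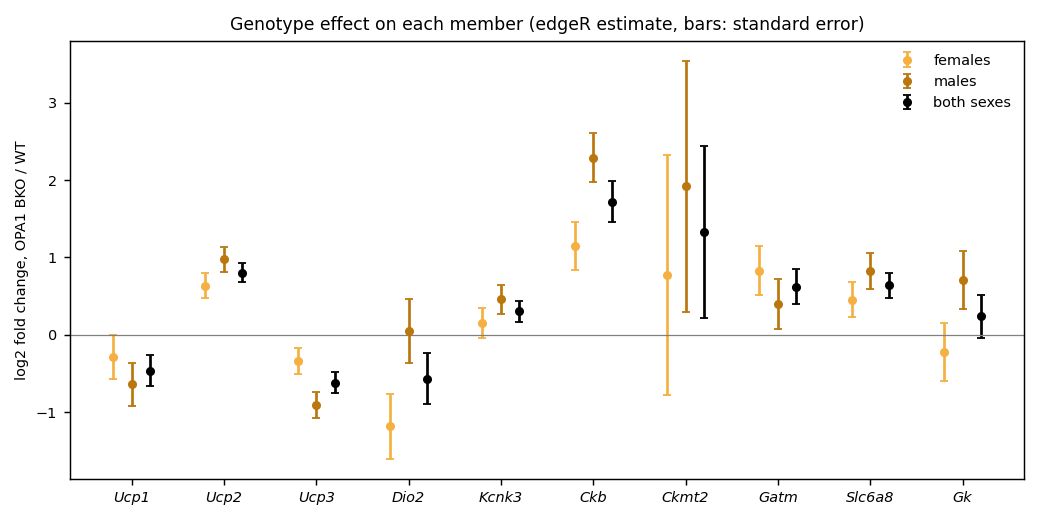
Log2 fold change of OPA1 BKO over WT for each member in females, in males and in both sexes (edgeR; bars are standard errors). *Ckb* stood at 1.15 in females and 2.29 in males, and the bars of *Ckmt2* were the widest, with an SE of 1.11 in both sexes together.

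The direction of 3 members depended on the scaling. With TPM, whose total is shared with the mitochondrial transcripts, the median of all genes shifted by 0.81 on the log2 scale, and with library size alone by 0.57. With library size without mitochondrial transcripts the median still stood at 0.22. Of all genes, 3255 were higher and 3157 lower with TMM, 3630 and 1642 with *Tbp* as reference, and 6076 and 1350 with library size without mitochondrial transcripts. With library size alone 10863 were higher and 374 lower, and with log2(TPM + 0.5) 13480 and 118. Of the members, 8 were then higher and 0 lower by limma with TPM, all 10 lying above 0. Over WT, *Ucp1* then stood at 0.48 and *Ucp3* at 0.35 with log2(TPM + 0.5), both past the threshold by limma (adjusted p = 0.0374 and 0.0195), and *Dio2* at 0.51 (adjusted p = 0.176). Relative to the median of all genes, *Ucp1* stayed between -0.49 and -0.34, *Ucp3* between -0.64 and -0.47 and *Dio2* between -0.61 and -0.30 over 9 ways of scaling or testing. *Ckb* stayed between 1.70 and 1.86 and *Ucp2* between 0.78 and 0.92. A scaling factor moves all genes of a mouse together, and subtracting the median takes that move out. These narrow ranges were therefore largely built in and give no separate support.

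**Figure D5:**
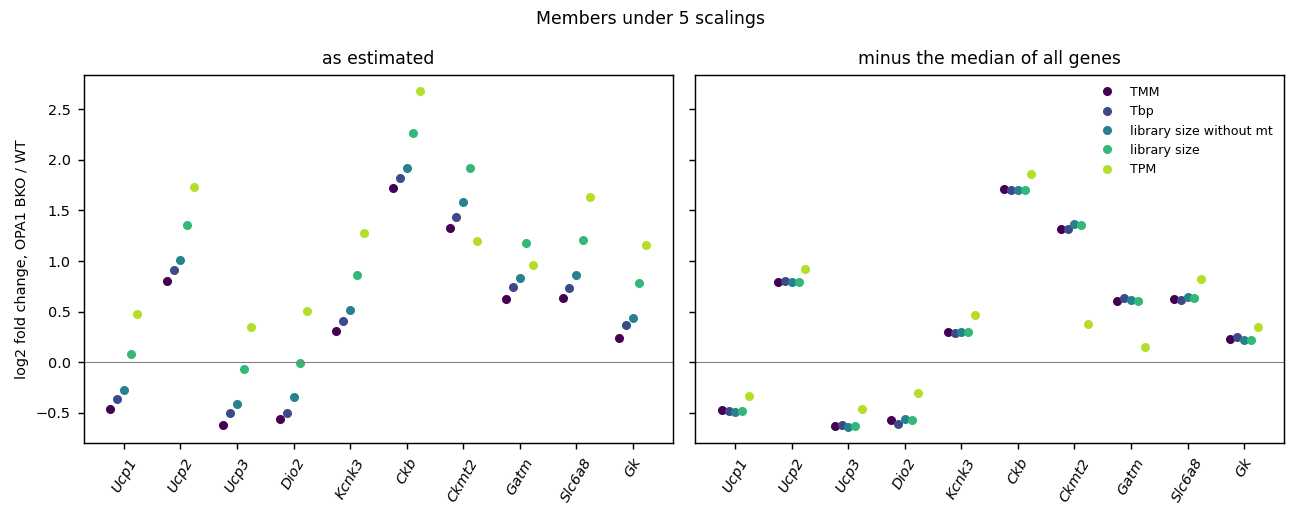
Log2 fold change of OPA1 BKO over WT for the members under 5 scalings, as estimated (left) and after subtracting the median of all genes (right). With TPM *Ucp1* was at 0.48 and with TMM at -0.46. Relative to the median it was negative under every scaling drawn, and the subtraction takes out any shift that all genes share.

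Genes with the pattern most like that of a member were found by the root mean square difference of centred log2 CPM over the 16 mice. For *Ucp1* they were *Eva1a* (0.230), *Cib2* (0.256) and *1700052K11Rik* (0.257), and the closest member was *Ucp3* (0.390). For *Ckb* they were *Efhc2* (0.394), *1700020L24Rik* (0.419) and *Fam234b* (0.437), and the closest member was *Ucp2* (0.657). For *Gk* they were *Tbc1d20* (0.354), *Slc43a2* (0.359) and *Esrrg* (0.361). The nearest genes to *Dio2* were less close, *Gm29408* (0.496), *Gm26809* (0.503) and *Gm49342* (0.509). These values share the same 16 libraries and are descriptions.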

How the data were processed

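Polyadenylated RNA of BAT was sequenced from 16 mice with a stranded kit. The authors deposited Kallisto output (version 0.45.0 and mm10 per the submitters' processing notes), which gives for each transcript an estimated count, not normalized between mice, and a TPM, scaled by length and by the total of each mouse. Transcripts were joined to genes through GENCODE M21 (GRCm38); 133284 of 135308 matched. Estimated counts were summed per gene, rounded, filtered (filterByExpr, minimum count 10, total 15) and tested in R 4.3.3 with edgeR 4.0.16 (TMM, quasi-likelihood test, terms for sex and genotype, or 4 group means for effects within a sex and the interaction). P-values were two-sided and adjusted by Benjamini-Hochberg over 15632 genes. DESeq2 1.42.0 and limma 3.58.1 were alternatives. The edgeR script was tested on simulated data. Samples were grouped by the labels. The members and lists were chosen with earlier results of these data known. The text names all members, up to 3 list genes per direction with the largest change among those that passed, and list genes whose role is explained. A further gene that the rule takes is left out. Marker lists of lymphocytes (4 of 12 lower), endothelium (6 of 10 lower), fibroblasts (6 of 11 higher) and nerve (0 of 6 passed by edgeR or DESeq2, 0 at an unadjusted p under 0.05) were also counted. Over all genes tested, 20.8% were higher and 20.2% lower in edgeR.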

Additional observations from a re-analysis of the deposited data

Results flagged for a closer look

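For each member in each group of 4 mice, 40 groups in all, the highest or lowest mouse was compared with the rest of its group by Dixon's ratio of the gap to the range (at the 95% critical value). Chance flags about 1 in 20 groups. In 2 groups a mouse stood apart. *Ucp2* was at 99.6 CPM in OPA1 BKO female 4, while the other 3 mice of that group lay between 68.6 and 73.3 CPM. *Kcnk3* was at 587 CPM in WT female 4, and the other 3 WT females lay between 404 and 410 CPM.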

How the results depend on the processing

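Of the 950 log2 values recomputed under alternatives, 882 kept their direction and their side of the threshold. Another 25 changed direction, 23 came past the threshold and 20 lost it. Most of the 950 came from fits without 1 mouse, which change little, so the total says little about the other alternatives. *Ucp1* was at 0.082 with library size alone, 0.48 with log2(TPM + 0.5) and 0.48 with log2(TPM + 0.1), and -0.46 past the threshold in DESeq2. *Ucp3* was at -0.068 with library size alone, and at 0.35 with either TPM pseudocount. *Dio2* was at 0.51 and 0.53 with the TPM pseudocounts of 0.5 and 0.1. *Kcnk3* passed at 0.86 with library size alone, 0.51 with library size without mitochondrial transcripts, 0.41 with *Tbp* as reference, and 1.28 with either TPM pseudocount. *Gk* passed at 0.78 with library size alone, 1.16 with log2(TPM + 0.5) and 1.17 with log2(TPM + 0.1). *Gatm* lost its call with length-scaled counts (0.55). The medians of all genes moved with these scalings. With log2(TPM + 0.5) or log2(TPM + 0.1), 8 members were higher and 0 lower; with library size alone 0 were lower; with DESeq2 2 were lower.

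Alternatives chosen after seeing the data used marker levels. With muscle markers as a term, *Ckmt2* was at -0.34 and *Gatm* at 0.51. Without the 3 mice rich in muscle transcripts, they were at -0.046 and 0.45. With macrophage markers as a term, whose sum did not overlap between genotypes, *Ckb* alone of the members passed, so that 1 was higher and 0 lower. Over all 15632 genes tested, 1215 were higher and 894 lower with that term, against 3255 and 3157 in the main fit. In that fit *Ucp1* was at 0.076, *Ucp2* at 0.40, *Ucp3* at -0.65, *Ckmt2* at -4.66, *Gatm* at -0.070 and *Slc6a8* at 0.59. The cause was not tested.

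Leaving out 1 mouse at a time gave log2 fold changes of -0.59 to -0.36 for *Ucp1*, -0.75 to -0.43 for *Dio2*, 0.23 to 0.38 for *Kcnk3* and 0.51 to 0.74 for *Gatm*, and 1 to 2 members lower. The *Gatm* call was lost without any 1 of 10 mice, all 4 groups among them. Within a sex, *Dio2* in males ran from -0.24 to 0.44, *Ckmt2* in females from -1.04 to 1.71 and *Gk* in females from -0.51 to 0.19. The interaction of *Ckmt2* ran from -0.77 to 2.96. Between WT males and females, the range was -0.033 to 0.23 for *Kcnk3*, -0.41 to 0.12 for *Ckb*, -0.047 to 0.16 for *Gatm* and -0.35 to 0.036 for *Slc6a8*.

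No paired analysis was possible because the labels give no replicate numbers that are shared between groups.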
